A study of Mus musculus with 4 samples.

Results

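The genes described here are the nuclear-encoded subunits of the mitochondrial respiratory chain and of ATP synthase, with a few factors and pseudogenes whose symbols fall under the same names. They were chosen by symbol alone, as every gene on the array starting with Nduf, Uqcr, Atp5 or Cox4 to Cox8, together with the 4 Sdh genes, where the array carries them. The rule found 74 of 11138 named genes, spotted 168 times: 34 in complex I, 3 in complex II, 6 in complex III, 15 in complex IV and 16 in complex V. Of these, 65 are subunits and 9 are not, namely the complex I assembly factors, the supercomplex factor Cox7a2l and the pseudogenes Ndufs5-ps and Atp5k-ps1. Genes of the same families that are not among the 74, such as Sdha, Ndufs1 and Uqcrc2, were not analysed here.

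The values come from SVEC cells, an established line of mouse endothelial cells, the cells that line blood vessels, cultured with lipopolysaccharide (LPS) for 24 h or for 4 h and compared with control cells on the same arrays. LPS is an outer membrane component of Gram-negative bacteria detected by cells through Tlr4, its receptor. Each time had 2 two-colour long-oligonucleotide arrays of amplified RNA, with LPS in Cy5 and control in Cy3 on the first, and the dyes exchanged on the second, the dye reversal. The labels of 3 arrays give 50 ng/ml of LPS, and that of the reversed 4 h array gives no dose. The labels do not speak of separate cultures, and the reversed array was taken as the same RNA pair measured again. Each time is therefore 1 replicate, the spread between its arrays is technical, and no test is possible within a time.

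Complex I (NADH dehydrogenase) and complex II (succinate dehydrogenase) pass electrons from NADH and succinate to ubiquinone, complex III (the cytochrome bc1 complex) passes them on to cytochrome c, and complex IV (cytochrome c oxidase) passes them to oxygen. Complexes I, III and IV pump protons across the inner mitochondrial membrane, and complex V, ATP synthase, uses their return to make ATP. Endothelial cells are known for taking much of their ATP from glycolysis, and their mitochondria are known also as a source of signals such as reactive oxygen species. Several complex IV subunits exist as an isoform found in most tissues and another restricted to heart and skeletal muscle or to testis.

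All values are log2 ratios, LPS over control, so 1 stands for 2-fold higher and -1 for 2-fold lower in LPS-treated cells. A pair of values at a time gives the array with LPS in Cy5 first and the array with LPS in Cy3, turned in sign, second. The direction is likely and not stated in the labels. It was read from the labels, which put LPS in Cy5 and in channel 2 unless the dyes were reversed; if the ratios were deposited as Cy3 over Cy5, all signs turn. Each array was centred on its median spot, so every ratio is relative to that spot. A gene was called higher or lower when the mean of the arrays was at least 2-fold and each array at least 1.5-fold the same way. After the sign was turned, the arrays of a pair correlated across genes at r = 0.10 at 24 h and 0.48 at 4 h, and across the 74 members at -0.11 and 0.56; genes are not independent replicates. The median SD between the arrays of a pair was 0.25 for the members and 0.32 for all genes at 24 h, and 0.63 and 0.31 at 4 h. Adjacent spots of the members correlated at r = 0.50 and 0.01 on the 24 h arrays and at 0.80 and 0.30 on the 4 h arrays, so spots on the reversed arrays repeated poorly. No intensities were given, so faint spots could not be set aside, and the presence of endothelial markers could not be checked by level.

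At 24 h of LPS no member met the 2-fold rule, while at 4 h many did. By that rule 0 of 74 members were higher at 24 h, where 1.68% of all genes were, and 0 were lower, where 0.799% of all genes were. At 4 h, 28 members (37.8%) were higher, where 8.74% of all genes were, and 2 (2.70%) were lower, where 5.77% of all genes were. The median over members was 0.21 at 24 h and 0.87 at 4 h, against 0.02 at 24 h and -0.0013 at 4 h over all genes. The mean ratio was above 0 for 52 members (70.3%) at 24 h and for 59 (79.7%) at 4 h, against 51.9% and 49.6% of all genes. On single arrays the median over members was 0.32 and 0.09 at 24 h and 0.36 and 0.76 at 4 h.

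The direction at 4 h depends on the point to which the arrays are centred. Centred on 43 abundant transcripts outside translation and respiration (such as Gapdh, Ppia and Pkm), 2 members were higher and 31 (41.9%) lower at 4 h, where 1.05% and 80.8% of all genes were. The median over members was then 0.016 at 24 h and -0.97 at 4 h. That centring subtracts 2.29 and 1.38 from the 4 h arrays and 0.22 and 0.16 from the 24 h arrays. The 4 h ratios are therefore relative to the median spot, and the median over members stood above that spot but below the abundant transcripts.

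**Figure D1:**
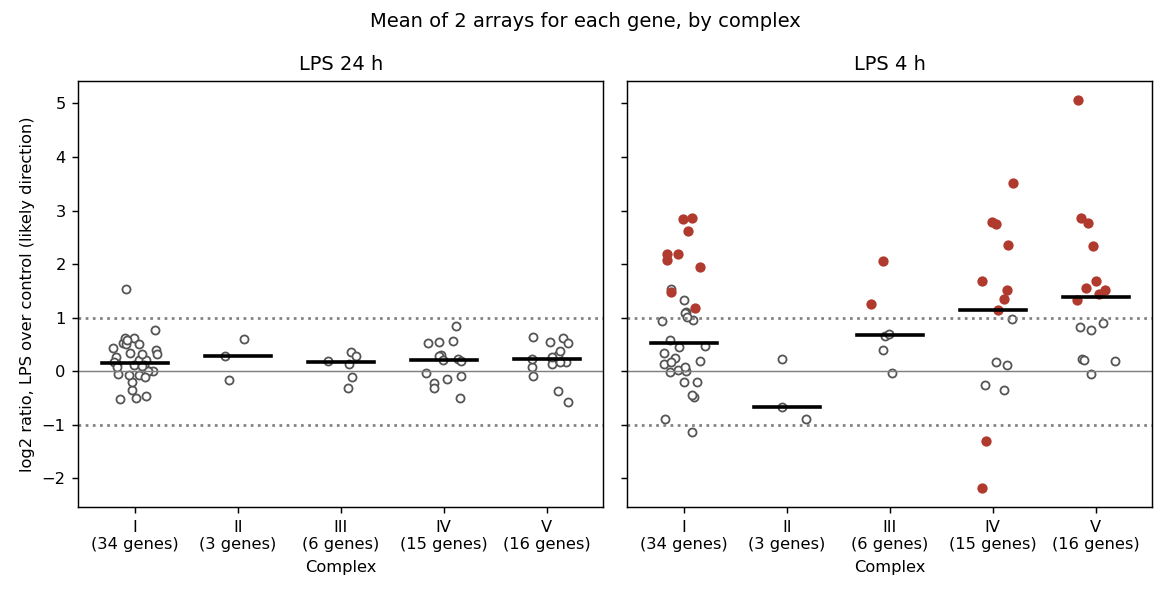
Mean log2 ratio (LPS over control, 2 arrays) of each of the 74 members, by complex, at 24 h (left) and 4 h (right). Filled points met the 2-fold rule and open points did not, bars are medians and dotted lines mark 2-fold; at 24 h all points are open, and at 4 h the medians are 0.52, -0.67, 0.67, 1.15 and 1.39 for complexes I to V, all of them below 0 when the arrays are centred on abundant transcripts.

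In the plot of means by complex, the medians of the complexes lay close together at 24 h and further apart at 4 h. At 24 h they were 0.15 for complex I, 0.29 for complex II, 0.17 for complex III, 0.22 for complex IV and 0.23 for complex V. At 4 h they were 0.52, -0.67, 0.67, 1.15 and 1.39 in the same order. The members higher at 4 h numbered 9 of 34 in complex I, 0 of 3 in complex II, 2 of 6 in complex III, 8 of 15 in complex IV and 9 of 16 in complex V. Both members that were lower at 4 h, Cox6a2 and Cox7a1, belong to complex IV. Centred on the abundant transcripts, the 4 h medians were -1.32, -2.51, -1.16, -0.69 and -0.44, so complexes I, III, IV and V turned in sign. Complex II stayed lowest and complex V highest. That centring cannot change this order, because it subtracts the same value from every gene of an array. Whether the complexes differ from each other was not tested.

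**Figure D2:**
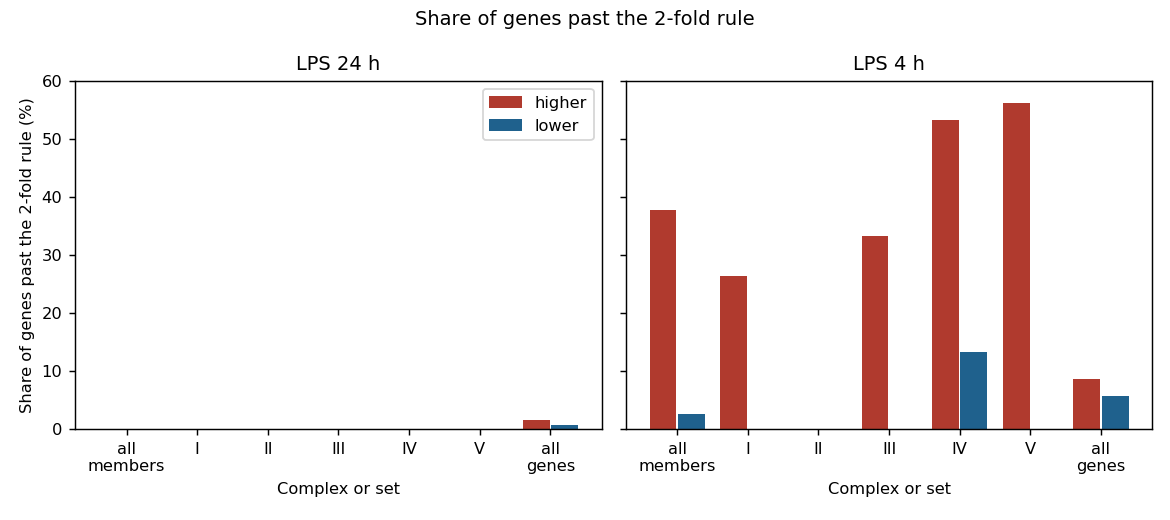
Share of genes (%) past the 2-fold rule at 24 h (left) and 4 h (right), higher in red and lower in blue, for all 74 members, for each complex and for all 11138 genes. No member stands past the rule at 24 h. At 4 h the shares higher run from 0% in complex II to 56.2% in complex V, against 8.74% of all genes. These shares are relative to the median spot of each array. Centred on abundant transcripts, 2 members are higher and 31 (41.9%) lower at 4 h, where 1.05% and 80.8% of all genes are.

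Complex I was measured through 27 subunits, 6 assembly factors and 1 pseudogene, and 7 of the subunits and 2 of the assembly factors were higher at 4 h. Among the core subunits, which hold the electron path and are shared with bacteria, Ndufs7 was higher at 4 h. This iron-sulphur subunit next to the ubiquinone site had 0.83 and 0.22 at 24 h, against 3.21 and 1.17 at 4 h. The other core subunits measured, Ndufs3 with means of 0.27 at 24 h and 0.13 at 4 h and Ndufv2 of the NADH-binding module, did not meet the rule. Ndufv2 was listed at a ratio of exactly 1 at every spot on both 24 h arrays and had -0.14 and -1.66 at 4 h, with the dye orientations far apart. Its adjacent spots on the 4 h array with LPS in Cy3 disagreed, at -3.34 and 0.03. The accessory subunit Ndufs4, of the NADH-binding module, had means of 0.22 at 24 h and 0.58 at 4 h.

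Of 13 accessory subunits of the Ndufa series, 3 were higher at 4 h. Ndufa13, which was first described as the cell death factor GRIM-19, had 0.65 and 0.58 at 24 h, against 4.05 and 1.66 at 4 h. Ndufa2, a small subunit of the arm that extends into the matrix, had 0.65 and 0.58 at 24 h, against 2.35 and 2.01 at 4 h. Ndufa5, of the same arm, had -0.07 and -0.03 at 24 h, against 2.31 and 1.59 at 4 h. In all 3 the 24 h arrays lay below the 4 h arrays without overlap, and the 24 h arrays of each gene lay close to each other. The lowest members of complex I at 24 h were also in this series. Ndufa3 had -0.72 and -0.33 at 24 h, against 0.76 and -0.27 at 4 h, and its 2 oligonucleotides differed in sign at 4 h (-0.49 and 0.99). Ndufa8 had -0.89 and -0.09 at 24 h, against 0 and -0.96 at 4 h. The remaining members of the series had means between -0.47 and 0.40 at 24 h and between -0.19 and 1.10 at 4 h: Ndufa1, Ndufa4 (a symbol of complex I whose protein was later assigned to complex IV), Ndufa6, Ndufa9, Ndufa10, Ndufa11, Ndufa12 and the mitochondrial acyl carrier protein Ndufab1. Behind the 1.10 of Ndufa10 lay adjacent spots of 4.85 and -0.45 on the array with LPS in Cy3.

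The Ndufb and Ndufc subunits, which sit in the membrane arm of complex I, gave 3 of 10 higher at 4 h. Ndufc1 had 0.69 and -0.44 at 24 h, against 2.68 and 3.01 at 4 h, and was 7.20-fold higher at 4 h. Ndufb2 had 0.13 and 0.10 at 24 h, against 3.31 and 1.92 at 4 h, and Ndufb11 had 0.99 and 0.03 at 24 h, against 2.52 and 1.63 at 4 h. In each of these the 4 h arrays lay above both 24 h arrays. Ndufb3 ran the other way but met the 2-fold rule at neither time, since single arrays carried its means. It had 3.05 and 0.03 at 24 h, against -0.03 and -2.25 at 4 h, so the array with LPS in Cy5 was high at 24 h and the other low at 4 h. On that low array its adjacent spots had -4.50 and 0. Ndufb5, Ndufb7 and Ndufb10 had 4 h means of at least 1 but missed the demand on each array, with 4 h values of 0 and 2.19 for Ndufb5, 0.14 and 1.87 for Ndufb7 and 0.55 and 2.10 for Ndufb10. In all 3 the array with LPS in Cy3 carried the mean. Ndufb4, Ndufb8 and Ndufc2 had means of 0.44 at 24 h and -0.45 at 4 h, of 0.58 at 24 h and -0.01 at 4 h and of 0.0046 at 24 h and 0.0003 at 4 h, and none met the rule. Opposed values lay behind these 4 h means. The oligonucleotides had -1.51 and 0.62 for Ndufb4 and -0.52 and 0.52 for Ndufc2, and the adjacent spots of Ndufb8 had -1.29 and 1.27.

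Among the assembly factors, which help build complex I and are not part of it, Ndufaf5 and Ndufaf7 were higher at 4 h. Ndufaf5, which in human cells modifies an arginine of the core subunit NDUFS7, had 0.22 and -0.04 at 24 h, against 1.2 and 1.77 at 4 h. Ndufaf7 had 1.59 and -0.04 at 24 h, against 1.12 and 1.25 at 4 h. Its adjacent spots of the same oligonucleotide disagreed, at 5.01 and -2.51 on the array with LPS in Cy3 at 4 h, so the mean of these hides a spread larger than itself. Ndufaf1, Ndufaf2, Ndufaf3 and Ndufaf4 had means of 0.17 at 24 h and -0.19 at 4 h, -0.11 at 24 h and 0.46 at 4 h, -0.07 at 24 h and 0.94 at 4 h and 0.08 at 24 h and 0.07 at 4 h, and did not meet the rule. The transcribed pseudogene Ndufs5-ps had 0.25 and 0.01 at 24 h, against 0.14 and 2.92 at 4 h, again carried at 4 h by the array with LPS in Cy3. Its adjacent spots on that array disagreed, at 5.47 and 0.37.

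Complex II, which is also the succinate dehydrogenase of the citric acid cycle, was the only complex with a 4 h median below 0 relative to the median spot. Its 3 measured genes had no member past the rule at either time. Sdhb, the iron-sulphur subunit, had 1.37 and -0.79 at 24 h, against 0.02 and 0.42 at 4 h. Sdhc, a membrane anchor, had -0.34 and 1.56 at 24 h, against -0.42 and -0.92 at 4 h. Sdhd, the other anchor, had 0.01 and -0.34 at 24 h, against -2.03 and 0.24 at 4 h. Adjacent spots disagreed behind the values farthest from 0 in both anchors. Sdhc had 3.06 and 0.06 on the 24 h array with LPS in Cy3, and Sdhd had 0.01 and -4.08 on the 4 h array with LPS in Cy5. The dye orientations were on opposite sides of 0 at 24 h in Sdhb and Sdhc, while Sdhd, at 0.0058 with LPS in Cy5, was within 0.01 of 0 on that array. The medians of this complex thus rest on values that the second array did not repeat. Without the arrays that carry LPS in Cy5, its median was -0.34 at 24 h and 0.24 at 4 h, and without the reversed arrays 0.0058 and -0.42.

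In complex III, 2 of 6 subunits were higher at 4 h. Uqcrc1, a core subunit that faces the matrix, had 0.27 and 0.12 at 24 h, against 2.13 and 2.01 at 4 h, and its arrays repeated each other closely at both times. The spots behind those means lay further apart, since adjacent spots of the gene had 4.31 and -0.06 on the 4 h array with LPS in Cy5. Uqcrh, the hinge protein next to cytochrome c1, had -0.49 and -0.13 at 24 h, against 1.30 and 1.22 at 4 h, with both of its oligonucleotides above 0 at 4 h (1.45 and 1.07) and below 0 at 24 h (-0.45 and -0.17). Uqcrfs1, the Rieske iron-sulphur protein, had 0.40 and 0.18 at 24 h, against 0 and 1.40 at 4 h. The small subunit Uqcrb had 0.57 and 0.14 at 24 h, against 0.16 and 0.62 at 4 h. Uqcrq, another small subunit, had 0.36 and -0.07 at 24 h, against -0.42 and 0.35 at 4 h, and Uqcr11, the third of these, had -0.71 and 0.49 at 24 h, against 0.42 and 0.88 at 4 h. None of these last 4 met the rule.

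In complex IV, 7 of the 10 ubiquitous or single-form subunits were higher at 4 h and none was lower. Cox6a1, a regulatory subunit, was 11.4-fold higher and ranked 69th of all genes at 4 h. It had 0.13 and 0.26 at 24 h, against 4.32 and 2.70 at 4 h. Cox8a, one of the smallest subunits, had 0.88 and 0.26 at 24 h, against 3.93 and 1.65 at 4 h. Cox5a, which in mammals binds a thyroid hormone metabolite, had 0.38 and 0.22 at 24 h, against 3.20 and 2.31 at 4 h. In these 3 every 4 h array lay above every 24 h array. Cox6b1, which joins the monomers of the enzyme near the cytochrome c side, had -0.03 and -0.04 at 24 h, against 3.67 and 1.05 at 4 h, with both 24 h arrays just below 0. The small subunit Cox7c had 0.59 and 0.48 at 24 h, against 2.73 and 0.62 at 4 h, and Cox7a2, the ubiquitous isoform of subunit VIIa, had 0.44 and 0.13 at 24 h, against 2.32 and 0.72 at 4 h. For both the array with LPS in Cy5 was much higher at 4 h than the other. Cox5b, a zinc-binding subunit, had 0.97 and 0.71 at 24 h, against 1.21 and 1.48 at 4 h. It had the highest 24 h mean of complex IV and the difference between its times, -0.50, was small.

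Cox4i1, which carries a regulatory ATP site, had 0.41 and 0.07 at 24 h, against 1.17 and 0.80 at 4 h and fell just short of the 2-fold mean at 4 h, at 1.98-fold. Cox6c, the lowest of complex IV at 24 h, had 0 and -0.98 at 24 h, against -0.06 and -0.65 at 4 h. Its 24 h mean came from 1 spot of -1.96 on the array with LPS in Cy3. Its other 24 h spots were listed at a ratio of exactly 1. Cox7b had 0.28 and 0.15 at 24 h, against -0.46 and 0.69 at 4 h, on opposite sides of 0 at 4 h. Cox7a2l, which is not a core subunit and links complexes III and IV into supercomplexes, was higher at 4 h, at 0.65 and 0.43 at 24 h, against 1.23 and 1.07 at 4 h. Its arrays repeated each other closely at both times.

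The 4 tissue-restricted isoforms of complex IV stood apart from their ubiquitous partners at 4 h in 3 of 4 pairs, in the plot of isoform pairs. Cox7a1, the heart and muscle form of subunit VIIa, was lower at 4 h and had -0.55 and 0.39 at 24 h, against -1.75 and -2.60 at 4 h. It was 156th of 11138 genes counted from the lowest at 4 h. Only 1 of its 2 oligonucleotides was low: the oligonucleotides had 4 h means of -0.27 and -4.08. Cox6a2, the heart and muscle form of subunit VIa, was lower at 4 h and had -0.56 and 0.13 at 24 h, against -1.86 and -0.76 at 4 h. Cox8b, the heart and muscle form of subunit VIII, had -0.23 and -0.04 at 24 h, against -0.13 and -0.37 at 4 h, below 0 on all 4 arrays but within 2-fold. Cox7b2, the testis form of subunit VIIb, had -0.85 and 0.21 at 24 h, against 0 and 0.36 at 4 h, with every spot on the 4 h array with LPS in Cy5 at a ratio of exactly 1.

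Restricted minus ubiquitous form, the difference in log2 ratio was -0.41 at 24 h and -4.82 at 4 h for Cox6a2 and Cox6a1, and -0.36 and -3.70 for Cox7a1 and Cox7a2. It was -0.71 and -3.04 for Cox8b and Cox8a, and -0.54 and 0.06 for Cox7b2 and Cox7b. Centring cannot change these differences, because both genes of a pair lie on the same array. On the single 4 h arrays the differences were -6.17 and -3.46 for subunit VIa, -4.08 and -3.32 for subunit VIIa and -4.06 and -2.02 for subunit VIII, so both dye orientations gave the same side. The differences compare responses of the probes and not the levels of the isoforms. Transcripts of unrelated tissues, 42 genes such as Scgb1a1 and Krt1 that this cell type is not known for, had medians of 0.06 (24 h) and -0.27 (4 h), with 2 higher and 5 lower at 4 h. Whether the low values of Cox7a1 and Cox6a2 share that shift was not tested.

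**Figure D3:**
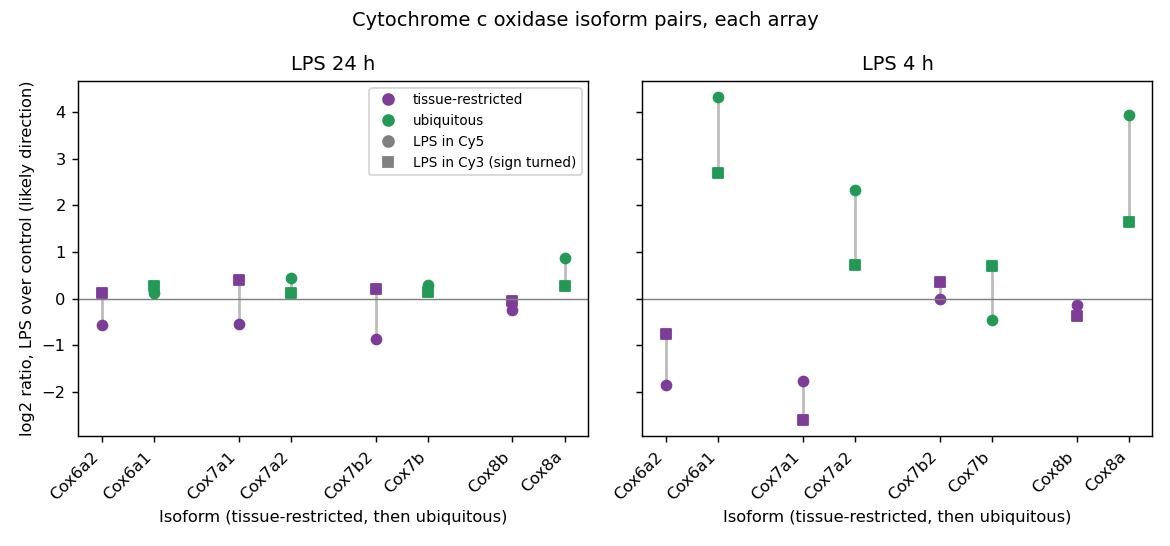
Log2 ratio (LPS over control) on each array for the 4 pairs of complex IV isoforms, tissue-restricted then ubiquitous, at 24 h (left) and 4 h (right). At 4 h Cox6a2, Cox7a1 and Cox8b lie below 0 on both arrays while Cox6a1, Cox7a2 and Cox8a lie above 0 relative to the median spot (Cox7a2 at -0.31 on centring to abundant transcripts), and Cox7b2 and Cox7b do not separate.

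Promoter sequences of these pairs are printed to show what lies around the start of genes that parted at 4 h. They run from 250 bases before to 50 after the annotated start, 5′ to 3′ on the gene's strand, from the RefSeq promoter table of GRCm38.p6. Capitals mark matches on either strand to a motif searched: CGCATGCG (NRF1), CCGGAAG (ETS factors, among them GABP), AAGATGGC (YY1) and TATAAA (the TATA box). CCGGAAG and AAGATGGC can overlap in the letters AAG. These factors are known for binding promoters of respiratory chain genes, the TATA box being a general element. Cox6a2 is not among the promoters of that table. The stretches are chr7:30183921-30184220 on the plus strand for Cox7a1, chr9:79759804-79760103 on the minus strand for Cox7a2, chr7:140900397-140900696 on the minus strand for Cox8b, chr19:7217567-7217866 on the minus strand for Cox8a and chr5:115348909-115349208 on the minus strand for Cox6a1.
Cox7a1: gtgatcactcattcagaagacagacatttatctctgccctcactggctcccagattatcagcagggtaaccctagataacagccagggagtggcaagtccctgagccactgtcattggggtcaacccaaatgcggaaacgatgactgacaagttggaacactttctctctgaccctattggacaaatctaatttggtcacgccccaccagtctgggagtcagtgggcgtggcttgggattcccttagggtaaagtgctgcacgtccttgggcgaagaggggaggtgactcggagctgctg
Cox7a2: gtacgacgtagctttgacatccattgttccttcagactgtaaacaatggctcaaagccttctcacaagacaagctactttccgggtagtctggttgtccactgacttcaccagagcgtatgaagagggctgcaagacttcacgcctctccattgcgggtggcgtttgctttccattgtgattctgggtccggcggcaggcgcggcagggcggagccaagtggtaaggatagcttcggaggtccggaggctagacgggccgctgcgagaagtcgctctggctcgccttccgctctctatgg
Cox8b: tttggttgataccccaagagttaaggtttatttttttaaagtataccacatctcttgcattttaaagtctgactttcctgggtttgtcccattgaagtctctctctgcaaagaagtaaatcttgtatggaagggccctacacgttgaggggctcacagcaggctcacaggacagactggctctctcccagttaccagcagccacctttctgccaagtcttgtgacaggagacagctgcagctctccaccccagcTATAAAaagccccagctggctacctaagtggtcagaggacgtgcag
Cox8a: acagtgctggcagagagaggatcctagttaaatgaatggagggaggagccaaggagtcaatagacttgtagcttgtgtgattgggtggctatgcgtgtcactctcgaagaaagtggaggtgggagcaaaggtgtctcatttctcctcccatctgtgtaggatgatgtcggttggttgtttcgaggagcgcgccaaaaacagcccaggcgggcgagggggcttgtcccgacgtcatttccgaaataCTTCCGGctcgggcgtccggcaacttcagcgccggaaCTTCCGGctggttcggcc
Cox6a1: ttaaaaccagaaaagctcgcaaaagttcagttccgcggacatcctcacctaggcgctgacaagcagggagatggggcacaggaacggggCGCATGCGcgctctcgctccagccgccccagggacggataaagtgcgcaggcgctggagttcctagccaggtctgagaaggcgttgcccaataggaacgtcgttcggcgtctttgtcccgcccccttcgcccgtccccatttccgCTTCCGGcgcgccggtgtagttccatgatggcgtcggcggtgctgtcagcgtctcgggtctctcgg
Cox8b, which was within 2-fold at both times, holds 1 TATAAA, whose first base is number 5 counted from the annotated start. Cox8a, 6.92-fold higher at 4 h, holds CCGGAAG at 2 places, and Cox6a1 holds CGCATGCG and CCGGAAG, which begin 161 and 16 bases before the start. None of the 4 motifs occurs in the Cox7a1 or the Cox7a2 stretch.

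In complex V, 9 of 16 members were higher at 4 h, with all 3 stalk subunits and 4 of 5 subunits of the catalytic F1 head among them. Atp5b, the catalytic beta subunit, had the largest ratio of any member at 4 h and ranked 10th of all 11138 genes. It had -0.08 and -0.08 at 24 h, against 6.92 and 3.20 at 4 h, with a 4 h mean of 5.06 ± 2.63 (SD, 2 arrays), or 33.3-fold. Its adjacent spots had 7.08 and 6.75 with LPS in Cy5 and 2.83 and 3.56 with LPS in Cy3, so the spots of an array lay closer to each other than the arrays did. Its 24 h arrays both stood at -0.08. The promoter of this gene, chr10:128083057-128083356 on the plus strand, from the same table and in the same layout, holds none of the 4 motifs.
Atp5b: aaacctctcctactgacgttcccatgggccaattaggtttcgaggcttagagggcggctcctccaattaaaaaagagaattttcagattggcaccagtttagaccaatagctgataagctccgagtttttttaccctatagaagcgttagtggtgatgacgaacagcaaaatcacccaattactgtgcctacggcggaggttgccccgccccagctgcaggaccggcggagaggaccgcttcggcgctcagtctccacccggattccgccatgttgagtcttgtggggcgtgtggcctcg

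The rest of the F1 head followed at lower ratios. Atp5c1, the gamma subunit of the rotating shaft, had 0.10 and 0.06 at 24 h, against 3.02 and 1.67 at 4 h. Atp5a1, the alpha subunit, had 0.26 and 0.21 at 24 h, against 2.25 and 0.65 at 4 h. Atp5e, the epsilon subunit at the foot of the shaft, had 0.04 and -0.77 at 24 h, against 2.30 and 0.72 at 4 h, and had the second lowest 24 h mean of complex V. All 3 were higher at 4 h, each with the larger ratio where LPS was in Cy5. Atp5d, the delta subunit, had 0.47 and 0.13 at 24 h, against 0.11 and 1.44 at 4 h and did not meet the rule, and its 2 oligonucleotides had 4 h means of 0.19 and 1.36. In the stalk that holds the head in place, Atp5j, coupling factor 6, had 0.18 and 0.16 at 24 h, against 3.90 and 1.84 at 4 h. Atp5h, subunit d, had 0.63 and 0.48 at 24 h, against 1.13 and 1.54 at 4 h. Atp5o, the subunit named for oligomycin sensitivity, had 0.69 and 0.61 at 24 h, against 1.60 and 1.78 at 4 h, the highest 24 h mean of complex V. Its arrays agreed at 4 h although its adjacent spots did not, at 3.04 and 0.16 with LPS in Cy5 and at -0.63 and 4.19 with LPS in Cy3.

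Only 1 of 7 membrane subunits of ATP synthase was higher at 4 h. This was Atp5j2, subunit f, at 0.38 and 0.69 at 24 h, against 3.0 and 2.55 at 4 h, where both dye orientations gave similar ratios. Atp5g1 and Atp5g2, which encode the same mature subunit c of the proton-driven ring, did not meet the rule. Atp5g1 had 1.95 and -0.70 at 24 h, against -1.90 and 1.80 at 4 h, opposite in sign between the arrays at both times, so its means carry no direction. Its adjacent spots also disagreed within each array. With LPS in Cy5 they had 3.91 and 0 at 24 h, and 0.16 and -3.97 at 4 h. With LPS in Cy3 they had -1.42 and 0.01 at 24 h, and 4.37 and -0.77 at 4 h. Atp5g2 had 0.56 and -0.11 at 24 h, against 1.15 and 0.66 at 4 h. Atp5l, subunit g, had 0.23 and 0.32 at 24 h, against 0.44 and -0.05 at 4 h, and Atp5k, subunit e, had 0.18 and 0.10 at 24 h, against 0.23 and 0.23 at 4 h. Atp5md, a small subunit known for joining ATP synthase dimers, had -1.42 and 0.26 at 24 h, against 0.48 and -0.07 at 4 h, the lowest 24 h mean of complex V. Atp5mpl, a small proteolipid, had 0.59 and -0.26 at 24 h, against 1.69 and -0.03 at 4 h. The symbol Atp5k-ps1, named as a pseudogene of subunit e, was higher at 4 h at 0.82 and -0.06 at 24 h, against 2.45 and 0.65 at 4 h, while Atp5k itself was not. It was the only member without an entry in the RefSeq gene table, so its identity rests on the platform annotation.

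**Figure D4:**
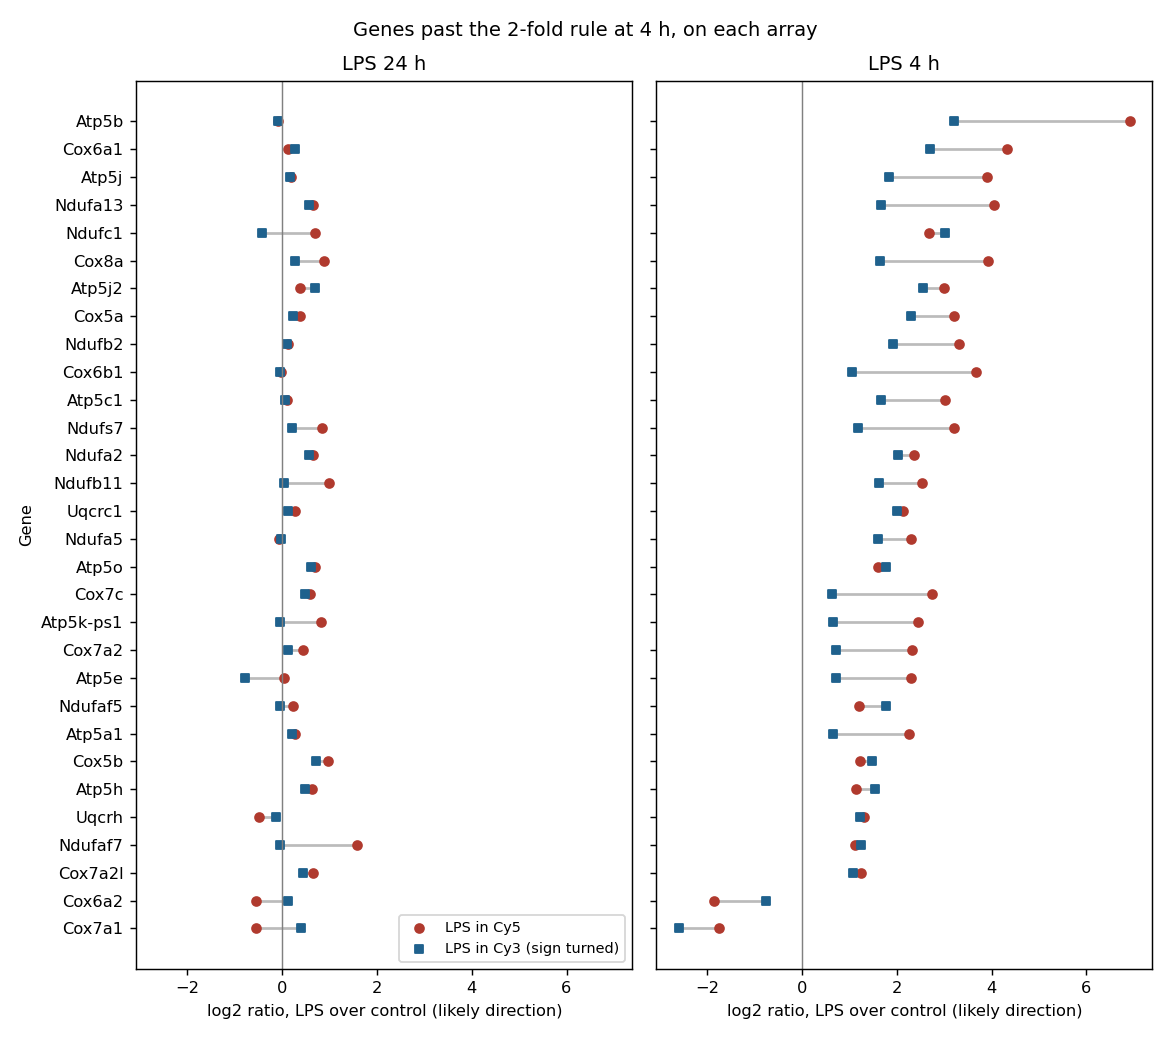
Log2 ratio (LPS over control) on each array for the 30 members past the 2-fold rule at 4 h, at 24 h (left) and 4 h (right), with LPS in Cy5 as circles and LPS in Cy3, turned in sign, as squares. At 4 h 28 members lie above 0 on both arrays and Cox6a2 and Cox7a1 below it, as the rule demands (12 of the 28 have means below 0 when the arrays are centred on abundant transcripts). At 24 h the means of the 28 run from -0.37 to 0.84.

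The 28 members higher at 4 h had 4 h means from 1.15 to 5.06 with a median of 2.07, or 4.21-fold, and 15 of them were at least 4-fold higher. The 2-fold rule itself puts the mean over spots above 0 on both 4 h arrays for all 28. In 25 of the 28 every spot was above 0, by more than 0.01, on both 4 h arrays. The exceptions were Ndufaf7, Uqcrc1 and Atp5o, whose spots disagreed. The array with LPS in Cy5 gave the larger ratio in 22 of 28, and the exceptions were Ndufc1, Ndufaf5, Ndufaf7, Cox5b, Atp5h and Atp5o. The plot of called genes by array shows this as circles to the right of squares. The same 28 had a median of 0.29 at 24 h, with 23 means above 0 and the means of Ndufa5, Uqcrh, Cox6b1, Atp5b and Atp5e below it.

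For 10 members every spot on the 4 h array with LPS in Cy5 was listed at a ratio of exactly 1, to within 1e-05 on the log2 scale. These were Ndufa4, Ndufa6, Ndufa8, Ndufa9, Ndufa10, Ndufa11, Ndufb5, Ndufaf2, Uqcrfs1 and Cox7b2, none of them called. On the 24 h arrays 3 members (Ndufv2, Ndufb10 and Cox6c) and 2 members (Ndufv2 and Ndufb10) were so listed, and on the reversed 4 h array none was. Whether an exact 1 marks a measured ratio or a spot without signal cannot be told from the values. With such spots taken as not measured, 28 members were higher and 2 lower at 4 h. No called member had such a spot on the 4 h arrays, so this setting could not remove a call.

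Set against each other, the times differed for 29 members. A gene was counted here when the gap between its means was 1 or more and the arrays of the times did not overlap. By that rule 25 members (33.8%) were lower at 24 h than at 4 h, where 9.99% of all genes were, and 4 (5.41%) were higher at 24 h, where 8.23% of all genes were. The 4 were Ndufb3, Sdhc, Cox6a2 and Cox7a1, with 24 h minus 4 h differences of 2.68, 1.28, 1.09 and 2.10. Behind the difference of Sdhc lay adjacent spots of 3.06 and 0.06 on the 24 h array with LPS in Cy3. The largest differences the other way were -5.14 for Atp5b, -3.31 for Cox6a1, -2.72 for Ndufc1 and -2.70 for Atp5j. Of the 28 members higher at 4 h, 23 were lower at 24 h by this rule. The other 5 were Ndufaf7, Cox5b, Cox7a2l, Atp5h and Atp5k-ps1, and Ndufb10 and Ndufaf3 were lower at 24 h without having been called at 4 h. The 2-fold rule and the rule for the gap both use the 4 h values, so the overlap of 23 was partly fixed in advance. Centred on the abundant transcripts the counts were 30 higher and 3 lower at 24 h than at 4 h, where 75.3% and 1.15% of all genes were. With spots at exactly 1 taken as not measured they were 4 (5.41%) higher and 23 (31.1%) lower, where 7.65% and 9.89% of all genes were. Whether the times shared control RNA is not stated in the labels.

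A response common to both times could be tested with limma, on 1 value per gene and time. That fit called 0% of all 11138 genes, and so 0 of 74 members, at a Benjamini-Hochberg adjusted p of 0.05, with 513 genes and 3 members at an unadjusted p under 0.05. The members were Cox5b at a shared log2 ratio of 1.09 in limma, Ndufaf7 at 0.98 and Atp5o at 1.17, each with an adjusted p of 0.761. A share of 4.05% of members lay under that unadjusted threshold, where 4.61% of all genes did. With all 4 arrays taken as independent samples limma also called 0 genes. Without a dye term 15 members (20.3%) and 1245 genes (11.2%) lay under the unadjusted threshold, and with it 11 (14.9%) and 1074 (9.64%). These fits count the arrays of a dye reversal as separate samples, which they were not taken to be here.

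Across the promoters of the members, the motifs were counted for the 63 members with an entry in the RefSeq promoter table, 25 of them higher at 4 h. CGCATGCG was found in 16.0% of the members higher at 4 h and in 18.4% of the other members, against 3.49% of other genes on the array and 2.77% of all protein-coding genes. CCGGAAG was found in 28% and 23.7% of these members, against 14.8% of other array genes. AAGATGGC was found in 16.0% and 10.5%, against 3.95%, and TATAAA in 4.00% and 15.8%, against 12.9%. Among other array genes that were higher at 4 h the shares were 4.24%, 19.9%, 5.01% and 11.8% in the same order of motifs. The first 3 motifs were thus at shares above those of other genes in both the called and the uncalled members, with no test made, and a match is only a run of letters.

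Other genes of the same pathway were read from lists by name. Among 18 measured assembly factors of the chain outside the name rule, 0 were called at 24 h, while at 4 h 3 were higher and 1 lower, and the list medians were 0.04 (24 h) and 0.64 (4 h). The 3 were Oxa1l, which inserts proteins into the inner membrane, at -0.85 at 24 h and 1.31 at 4 h, Bcs1l, which assembles complex III, at -0.15 and 1.15, and Sdhaf4 at 0.33 and 1.13. Sdhaf2, which helps attach flavin to complex II, was the lower one, at -0.48 and -1.33. Lrpprc and Tmem126b, at 4 h means of 0.87 and 1.25, missed the rule. Of 7 subunits and carriers outside the name rule, only Atpif1, the inhibitor of ATP synthase, was called, at 0.30 at 24 h and 2.03 at 4 h, while Cycs, cytochrome c, had 0.78 and -0.03. Dmac2 and Hccs, also on that list, had 24 h means of 0.72 and -0.25 and 4 h means of 0.11 and 0.56.

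Of 6 genes of ubiquinone synthesis none was called at either time, with list medians of 0.18 (24 h) and 0.41 (4 h) and the means (24 h and 4 h) of Coq10b (0.16 and 0.91), Coq2 (0.20 and 0.84), Coq5 (-0.61 and 0.73) and Pdss2 (0.47 and -0.09) farthest from 0. The citric acid cycle and pyruvate dehydrogenase list had 1 of 15 higher at 24 h, Fh1, fumarase, at 1.17. At 4 h 2 were higher, the succinyl-CoA ligase genes Suclg1 (2.54) and Sucla2 (1.25), and 1 lower, Dlst (-2.69), with list medians of 0.26 (24 h) and 0.20 (4 h). Among 13 carriers and porins, 0 were called at 24 h. At 4 h the outer membrane porins Vdac1 (2.95), Vdac2 (2.69) and Vdac3 (2.27), the 2-oxoglutarate carrier Slc25a11 (2.59) and the ADP/ATP carrier Slc25a4 (2.55) were higher. The phosphate carrier Slc25a3 (-1.25), Slc25a10 (-2.23) and Slc25a20 (-1.37) were lower, so the median of that list was 0.0022 at 4 h, against 0.11 at 24 h.

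The mitochondrial import list was closest to the members in its 4 h median, with 8 of 22 higher and none lower at 4 h and medians of 0.28 (24 h) and 0.66 (4 h). Tomm20, a receptor of the outer membrane, was lower at 24 h (-1.03) and higher at 4 h (2.83), and the chaperone gene Hspd1 was higher at both (1.25 and 2.30). Tomm6 (2.43), Tomm7 (1.98), Timm13 (1.94), Tomm40 (1.29), Timm8b (1.17) and Timm8a1 (1.14) were higher at 4 h. Of 12 regulators of mitochondrial biogenesis, only the coactivator gene Ppargc1a was called, at 24 h, with 0.84 and 4.00 on its arrays, against 0 and -0.56 at 4 h. The list medians were 0.09 (24 h) and -0.08 (4 h), and Tfam (0.06 and 1.2), Polg (-0.10 and 0.91) and Polrmt (-0.76 and -0.56) were not called. Of 16 genes of the vacuolar proton ATPase, a relative of complex V in other membranes, 1 was higher at 24 h, Atp6v1c2 (2.61). At 4 h 3 were higher, Atp6ap2 (2.80), Atp6v1b2 (1.39) and Atp6v0e (1.22), and 3 lower, Atp6v1d (-1.93), Atp6v0a1 (-1.22) and Atp6v1f (-1.15), with a median of 0.27, against 0.05 at 24 h.

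**Figure D5:**
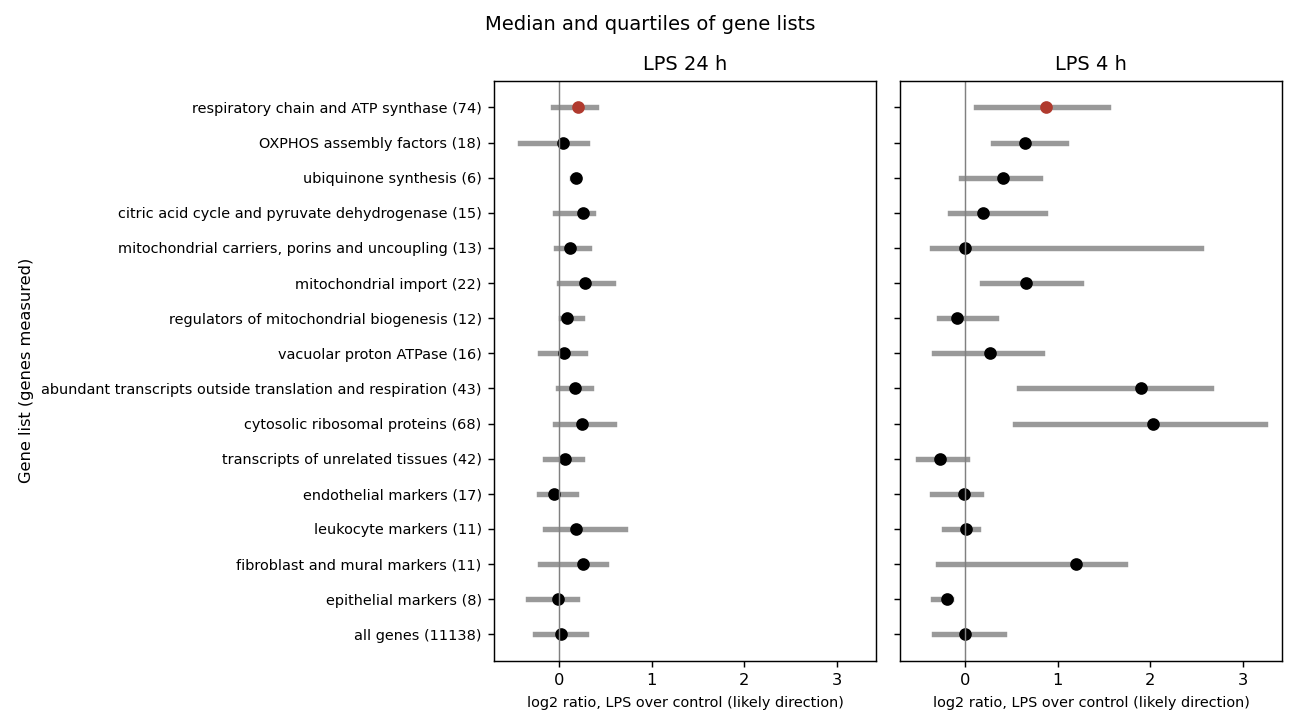
Median (point) and quartiles (line) of the mean log2 ratio (LPS over control) for the members, the other gene lists and all genes, at 24 h (left) and 4 h (right), with the number of genes measured. At 4 h the medians of cytosolic ribosomal proteins (2.03) and abundant transcripts (1.90) lie above that of the members (0.87), which is below 0 when the arrays are centred on the abundant transcripts.

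In the plot of list medians, lists outside mitochondria also stood above the median spot at 4 h. Of 68 cytosolic ribosomal protein genes, 41 were higher and 0 lower at 4 h with a median of 2.03, and 2 were higher at 24 h with a median of 0.25; Rpl6, Rps3, Rps7 and Rpl21 were farthest from 0. Of the 43 abundant transcripts, 25 were higher and 1 lower at 4 h with a median of 1.90, and 3 were higher at 24 h with a median of 0.17, with H3f3b, Ppia, Gapdh and Pkm farthest from 0. The part of transcript abundance in the ratios of the members was not tested. Marker lists of cell types were read beside them: fibroblast and mural markers had 6 of 11 higher and 1 lower at 4 h (median 1.2, against 0.26 at 24 h), among them Col3a1 at 3.05, Pdgfra at 1.92, S100a4 at 1.75 and Dcn at 1.70. Endothelial markers had 0 of 17 higher and 2 lower at 4 h, Cdh5 at -3.47 and Plvap at -1.43, with medians of -0.06 (24 h) and -0.01 (4 h); Sox18 and Nos3 were not called. Leukocyte markers had 0 of 11 called at 4 h and 1, Coro1a, higher at 24 h, and Laptm5, Lyz2 and Cd3e were not called. Of 8 epithelial markers only Cldn3 was lower at 4 h, at -1.66, and Cldn7, Cdh1 and Krt18 were not called. Ins2 and Mpo were the 2 of 42 transcripts of unrelated tissues that were higher at 4 h. The part of cell makeup in the ratios of the members was not tested, and fewer cells of a type and less RNA per cell cannot be told apart in such bulk samples.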

How the data were processed

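Per the labels, amplified RNA of control and LPS-treated cells was labelled with Cy3 and Cy5 and hybridised together, and the dyes were exchanged on the second array of each time. The authors deposited log2 ratios of the dyes with a median of 0 per array. The log2 scale was read from the values, turned into linear folds of the stronger over the weaker dye. As such folds, 99.96% of spots or more of every array fell on steps of 0.01, with a tolerance of 2 hundredths of such a step. No source used here gives the scanner, the background correction or the normalization.

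Of 32448 spots, 24344 had 1 gene symbol in the platform annotation, and 98 had several and were left out. RefSeq genes of GRCm38.p6 held 73 of 74 members by Entrez identifier. Of the members, 66 rest on 1 oligonucleotide and 8 on more. Each array was centred on its median, reversed arrays were turned in sign, spots of a gene were averaged and then the 2 arrays of a time. Precision is limited by the number of arrays. The p-values come from limma 3.58.1 (lmFit and eBayes, intercept only, on the mean of each time, in R 4.3.3). They measure only the spread between 2 times of 1 RNA pair each. The fit was also run on simulated data with independent arrays. The arrays here are dye-reversed pairs, so that run does not check the fit for this design.

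The members, lists and tests were chosen with earlier results of these data known. All members are named; arrays are given one by one for those past the 2-fold rule and for the 2 highest and 2 lowest of each complex at each time, and for others where it helps. Up to 4 genes of each other list were named by size of mean, and further ones because they were called. Oligonucleotide sequences were not used here.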

Additional observations from a re-analysis of the deposited data

Results flagged for a closer look

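For 6 of 74 members (8.11%) both 24 h arrays lay on one side of 0 and both 4 h arrays on the other, as they did for 1455 of all 11138 genes (13.1%); this difference was not tested, with 1 RNA pair per time. The values are 24 h minus 4 h. Atp5b, the catalytic subunit of ATP synthase, had -5.14, from means of -0.08 at 24 h and 5.06 at 4 h. Cox6b1 of complex IV had -2.40, with -0.04 and 2.36, and Ndufa5 of complex I -2.00, with -0.05 and 1.95. Uqcrh of complex III had -1.57, with -0.31 and 1.26, and Ndufa1 of complex I -0.54, with -0.35 and 0.18. Ndufb3 of complex I had 2.68, with 1.54 and -1.14, the only one of these 6 with the higher mean at 24 h; it has 1 array within 0.03 of 0 at each time. The 24 h means of Atp5b, Cox6b1 and Ndufa5 lay close to 0.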

How the results depend on the processing

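Values as deposited, centring on named spots, spots at exactly 1 as not measured, the median over spots and subunits only moved no count of members past the 2-fold rule by over 1.5 times and turned no median. Several of these settings could change little. The deposited arrays already had a median of 0, and the 66 members with 1 oligonucleotide have a pair of spots each, whose median is their mean. No member called at 4 h had a spot at exactly 1 on the 4 h arrays. Arrays scaled to one spread gave 25 members (33.8%) higher at 4 h and quantile normalization 24 (32.4%), where 7.9% and 6.7% of all genes were. Under quantile normalization 1 member was higher at 24 h, where 3.69% of all genes were, and the complex II median at 24 h was 0.64. It left 17 members (23.0%) lower at 24 h than at 4 h, where 7.88% of all genes were. The 1.5-fold rule gave 4 (5.41%) higher at 24 h, where 6.74% of all genes were, and the mean alone 1, where 3.48% were. The 3-fold rule gave 18 (24.3%) higher and 1 lower at 4 h, where 5.11% and 2.75% of all genes were. Centring on abundant transcripts gave medians at 24 h of 0.016 for members and -0.041, 0.10, -0.021, 0.029 and 0.041 for complexes I to V, so complexes I and III turned in sign. At 4 h it gave 2 higher and 31 (41.9%) lower, where 1.05% and 80.8% of all genes were. The 4 h medians were then -0.97 for members and -1.32, -2.51, -1.16, -0.69 and -0.44 for complexes I to V. This centring gave 30 members higher and 3 lower at 24 h than at 4 h, where 75.3% and 1.15% of all genes were. It turned these called members at 4 h: Ndufaf5 -0.35, Ndufaf7 -0.66, Uqcrh -0.58, Cox5b -0.49, Cox7a2 -0.31, Cox7c -0.16, Cox7a2l -0.69, Atp5a1 -0.39, Atp5e -0.33, Atp5h -0.50, Atp5o -0.15 and Atp5k-ps1 -0.29. That centring subtracts a constant per array, which is why values below it turn.

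Leaving out the arrays with LPS in Cy5 gave 1 member higher and 1 lower at 24 h, where 6.92% and 2.78% of all genes were. At 4 h it gave 33 (44.6%) higher and 3 lower, where 12.4% and 9.04% of all genes were. Leaving out the arrays with LPS in Cy3 gave 5 (6.76%) higher and 1 lower at 24 h, where 4.51% and 7.34% of all genes were. At 4 h it gave 31 (41.9%) higher and 4 lower, where 13.3% and 8.94% of all genes were. Medians then ran from 0.09 to 0.32 for members, 0.011 to 0.39 for complex I, -0.34 to 0.0058 for complex II, 0.13 to 0.32 for complex III, 0.21 to 0.28 for complex IV and 0.11 to 0.32 for complex V at 24 h. At 4 h they ran from 0.36 to 0.76 for members, 0.16 to 0.92 for complex I, -0.42 to 0.24 for complex II, 0.29 to 1.05 for complex III, 0.72 to 1.21 for complex IV and 1.08 to 1.64 for complex V. Without the arrays with LPS in Cy5, 4 members were higher and 32 (43.2%) lower at 24 h than at 4 h, where 14.8% and 13.3% of all genes were. Without the reversed arrays 8 were higher and 26 (35.1%) lower, where 9.42% and 16.0% of all genes were. The larger counts of members higher at 24 h, and of members higher at 24 h than at 4 h, came without the reversed arrays. The causes were not tested. Robust eBayes also called 0 genes and 0 members (493 and 3 at an unadjusted p under 0.05 in limma). No paired analysis was possible because each time holds 1 RNA pair, so the labels give no replicate numbers that pair samples. With 1 RNA pair per time, no value here carries variation between cultures, and without intensities faint spots cannot be told from measured ones.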
